A study of Homo sapiens with 6 samples.

Results

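The 9 genes described here encode the enzymes that make serine from glucose carbon and the enzymes that pass its side-chain carbon through folate. They were taken by gene symbol from the 28265 gene rows of the count tables: PHGDH, PSAT1 and PSPH of serine synthesis, SHMT1 and MTHFD1 of cytosolic folate metabolism, and SHMT2, MTHFD2, MTHFD1L and MTHFD2L of mitochondrial folate metabolism. RNA had been measured by polyA RNA sequencing in MDA-MB-231GlnIND and in its parent MDA-MB-231, a human cell line established from a triple-negative breast cancer. The GlnIND population is a glutamine-independent derivative of that line, kept for more than 6 weeks in RPMI 1640 without glutamine and with 10% dialysed fetal bovine serum. Parental MDA-MB-231 cells were kept in glutamine-replete RPMI 1640 with 10% fetal bovine serum that was not described as dialysed. Each group had 3 libraries. Cell population, glutamine supply and serum type changed together and cannot be told apart, and the labels do not say whether a GlnIND library was a separate derivation or whether libraries of a group were separate cultures. The p-values therefore cover the differences among these libraries only, and that spread may be technical. In bulk RNA of this kind, fewer cells of a type and less RNA per cell cannot be told apart.

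Serine synthesis runs in 3 steps from 3-phosphoglycerate, an intermediate of glycolysis. PHGDH oxidises it, PSAT1 transfers an amino group to the product from glutamate, which becomes alpha-ketoglutarate, and PSPH removes the phosphate to release serine. SHMT1 in the cytosol and SHMT2 in mitochondria then split serine into glycine and a carbon unit on tetrahydrofolate. In mitochondria MTHFD2 or its paralog MTHFD2L oxidises that unit and MTHFD1L releases it as formate, while cytosolic MTHFD1 carries all 3 of the matching activities in one protein and can also take up formate for purine and thymidylate synthesis. PSAT1 is the enzyme that the title of the study names, and glutamate, its amino donor, is what cells make from glutamine.

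The promoter windows of the members were read from RefSeq (GRCh38.p14), which held 7 of the 9 genes in 11 windows of 300 bases, from 250 bases before a transcript start to 50 after it. PSPH and SHMT2 had no entry. The counts themselves were made on hg19, so these positions serve only to show the sequence. The windows were searched on both strands for TGATGNAA, the core of the element bound by ATF4 with C/EBP proteins, for CACGTG, the E-box bound by MYC and related factors, and for TGACNNNGC, the core of the element bound by NRF2. These letters do not overlap each other in the members' windows. The PSAT1 window is shown for the enzyme in the study's title. Its 250 bases before the start hold none of the 3 motifs, which says only that these letters are absent there. The MTHFD1L stretch is shown because it holds the TGATGNAA match, in capitals, and the MTHFD1 stretch because it holds an E-box, in capitals, beginning 15 bases before the start.
PSAT1 at chr9:78296875-78297124, plus strand: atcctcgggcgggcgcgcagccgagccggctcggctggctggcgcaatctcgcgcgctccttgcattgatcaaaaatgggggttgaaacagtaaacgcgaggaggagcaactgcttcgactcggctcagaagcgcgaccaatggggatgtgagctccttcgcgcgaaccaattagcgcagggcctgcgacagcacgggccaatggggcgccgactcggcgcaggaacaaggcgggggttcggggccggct
MTHFD1L at chr6:150866346-150866375, plus strand: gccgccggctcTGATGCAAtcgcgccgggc
MTHFD1 at chr14:64388323-64388352, plus strand: tggccagtccctaagCACGTGggttgggtt
Over all 35116 windows of the reference table, 3.62% held TGATGNAA, 7.26% held CACGTG and 13.3% held TGACNNNGC. MTHFD1L also held CACGTG, and MTHFD2 and MTHFD2L held TGACNNNGC within 50 bases after a start. PHGDH, PSAT1 and SHMT1 had no match to any of the motifs.

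Library totals were 21276815 to 24594248 counts in GlnIND cells and 18256219 to 21741371 in parental cells. The 9 members held 0.113% to 0.118% of all counts in GlnIND libraries and 0.0937% to 0.108% in parental libraries, with 274 to 9522 counts for a member in a library, so all 9 passed the filter on low counts. Levels are given as CPM, read counts scaled to library size with TMM composition factors. Changes are log2 fold changes, GlnIND over parental, and their standard errors (SE) come from edgeR's quasi-likelihood test, Benjamini-Hochberg adjusted over 13949 tested genes and called at an adjusted p under 0.05. By that rule 56.3% of tested genes were called, 28.4% higher and 27.9% lower in GlnIND cells. Parental replicate 1 stood apart from the other libraries. A chi-square comparison of counts gave 23.7 and 33.0 per gene between it and parental replicates 2 and 3, against 3.42 to 4.12 for every other pair within a group. Over the members alone the same pairs gave 34.2 and 45, against 2.79 between parental replicates 2 and 3. GlnIND replicate 1 also stood apart there, at 9.5 and 12.5 from GlnIND replicates 2 and 3, which were at 3.93 from each other. Of 5 genes taken as present in this line, VIM, CD44, AXL and CAV1 averaged 366.1 to 6077 CPM in GlnIND and 516.1 to 3979 CPM in parental cells. The other, SPARC, averaged only 1.69 CPM in GlnIND and 0.556 CPM in parental cells. Of 5 genes taken as low in it, ESR1, PGR and CDH1 were untested for low counts. ERBB2 averaged 63.7 CPM in GlnIND and 36.1 CPM in parental cells, and EPCAM 2.22 CPM in GlnIND and 14.3 CPM in parental cells. Of 9 fibroblast, leukocyte and endothelial markers, CD3E was at 0 in every library and DCN, COL3A1, PTPRC and CDH5 were untested for low counts. LUM averaged 2.35 CPM in GlnIND and 0 CPM in parental cells, and COL1A1 averaged 12.3 CPM in GlnIND and 5 CPM in parental cells. PECAM1 averaged 4.34 CPM in GlnIND and 2.41 CPM in parental cells, and CD68 averaged 176.6 CPM in GlnIND and 178.1 CPM in parental cells. The part of these in the members' values was not tested.

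Of the 9 members, 4 were higher in GlnIND cells (PHGDH, SHMT1, MTHFD1 and MTHFD2L), 3 were lower (PSPH, SHMT2 and MTHFD2), and PSAT1 and MTHFD1L did not pass the test. The 7 calls are to be read against 56.3% of all tested genes. The CPM ranges of the groups were apart at all 9 members, 5 with GlnIND above and 4 with GlnIND below, as they were at 65% of all tested genes. The median log2 fold change of the members was 0.19, against 0.03 over all tested genes. With library totals in place of TMM factors, PSAT1 joined the higher genes and SHMT2 left the lower ones, a split of 5 and 2.

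**Figure D1:**
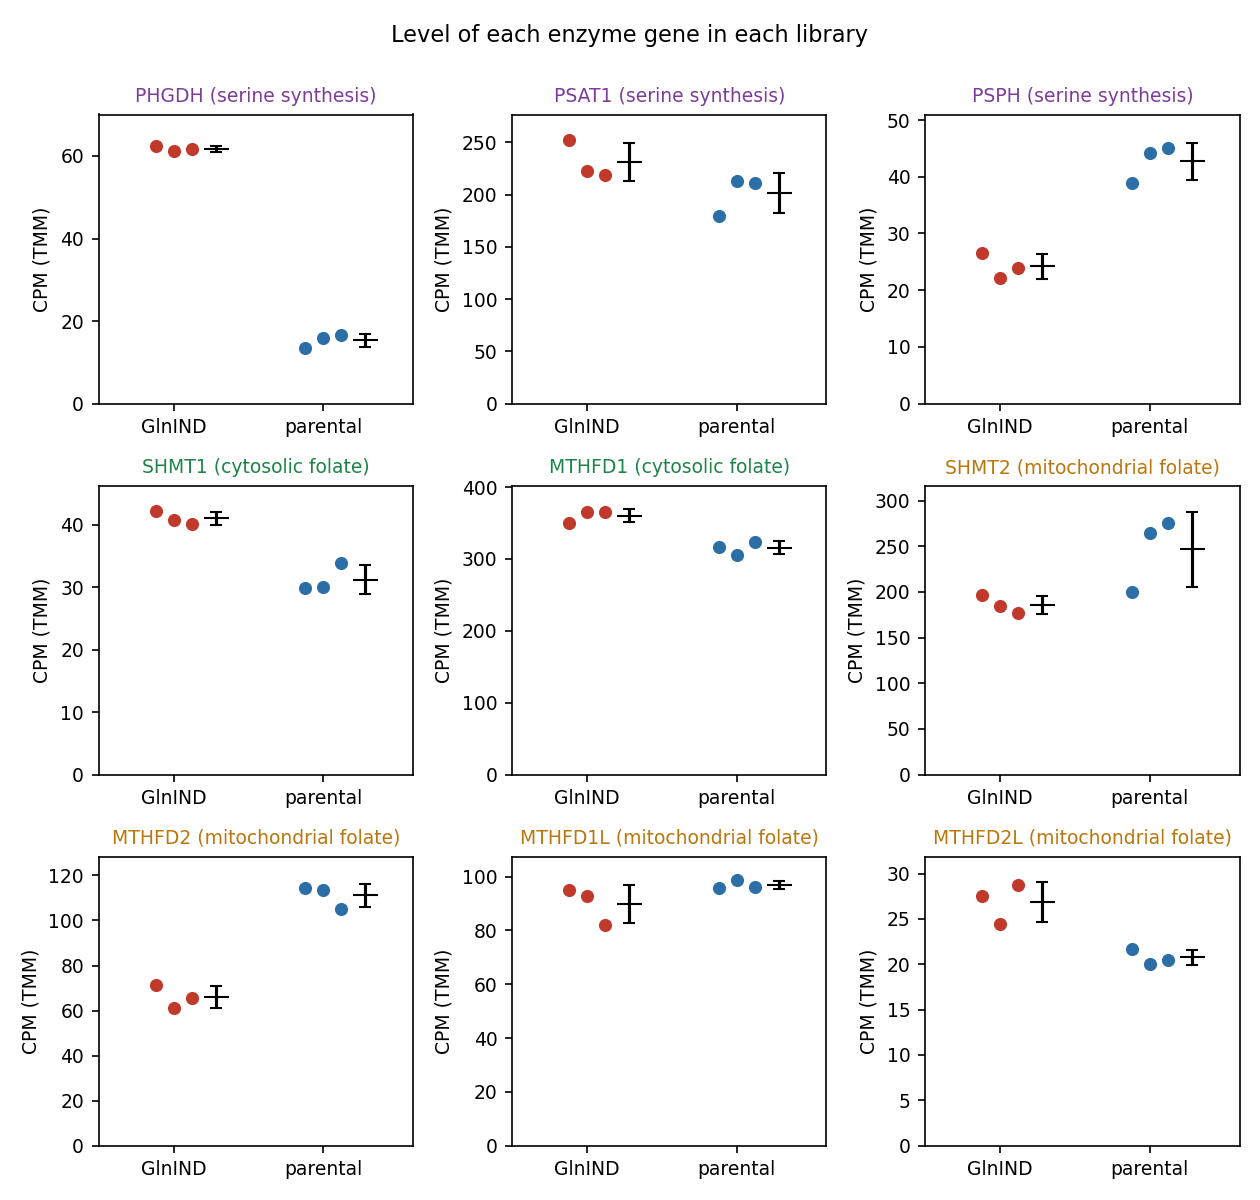
TMM-normalised CPM of each enzyme gene (vertical axes, each from 0) in the 3 GlnIND libraries (red, replicates 1 to 3 from left to right) and the 3 parental libraries (blue), with the mean and SD in black. The groups do not overlap at any gene, and the gap is widest at PHGDH, at 61.7 CPM in GlnIND and 15.4 CPM in parental cells.

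The 3 genes of serine synthesis moved apart: the first enzyme's transcript rose, the last one's fell, and the middle one's change did not pass the test. PHGDH was at 62.4, 61.1 and 61.6 CPM in GlnIND libraries 1 to 3, against 13.6, 15.9 and 16.6 CPM in parental libraries 1 to 3. The GlnIND libraries were close to each other, and all lay far above the highest parental library. PHGDH rose 4.02-fold (log2 fold change 2.01, SE 0.0945, edgeR adjusted p = 2.95e-07), a rise that 491 of the 13949 tested genes (3.52%) equalled or passed. Changes of at least that size in either direction were seen at 4.99% of tested genes.

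PSAT1, the aminotransferase, was at 252.5, 222.6 and 219 CPM in GlnIND libraries and at 179.7, 213.3 and 211.2 CPM in parental libraries. The lowest GlnIND and the highest parental library were close, and the difference was largest between GlnIND replicate 1 and parental replicate 1. The log2 fold change was 0.20 with a 95% interval of 0.01 to 0.39 (SE 0.086, edgeR adjusted p = 0.0718). Without parental replicate 1 it was 0.11 and passed the test (edgeR adjusted p = 0.0457), and without GlnIND replicate 1 it was 0.12 (edgeR adjusted p = 0.315). PSAT1 also passed with upper-quartile factors (0.29, edgeR adjusted p = 0.0182) and with library totals (0.35, edgeR adjusted p = 0.00812), settings that move the median of all genes to 0.12 and 0.18. Relative to that median the PSAT1 value was 0.17 under each of the 3 scalings.

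PSPH, the phosphatase, was at 26.6, 22.2 and 23.9 CPM in GlnIND libraries, against 38.9, 44.2 and 45.0 CPM in parental libraries. All GlnIND libraries lay well below all parental ones, and the gene fell by 0.82 in log2 units (SE 0.1, edgeR adjusted p = 0.000103). The rise of PHGDH and the fall of PSPH kept their direction and their call under all 17 alternatives run for each. Among these, the authors' matrix holds the same counts, and the adjusted p under 0.01 uses the same fit. Neither could change a direction.

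The ratio of 2 genes within a library does not depend on the scaling between libraries, so successive steps and paired enzymes were also compared that way, over 6 pairs. The PSAT1 counts were 4.05, 3.64 and 3.55 times the PHGDH counts in GlnIND libraries, against 13.2, 13.4 and 12.7 times in parental libraries. PSPH counts were 0.105, 0.0998 and 0.109 of the PSAT1 counts in GlnIND libraries and 0.217, 0.207 and 0.213 of them in parental libraries. PHGDH was thus higher relative to PSAT1, and PSAT1 relative to PSPH, in GlnIND cells, with log2 differences of -1.81 and -1.02. Neither ratio overlapped between the groups. How often ratios of other gene pairs stay apart was not examined, and the CPM ranges of single genes were apart at 65% of tested genes. An exact two-sided permutation test gave p = 0.1 for each of the 6 pairs, the smallest value that 3 libraries against 3 allow, and 0.1 after Benjamini-Hochberg adjustment over the 6.

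**Figure D2:**
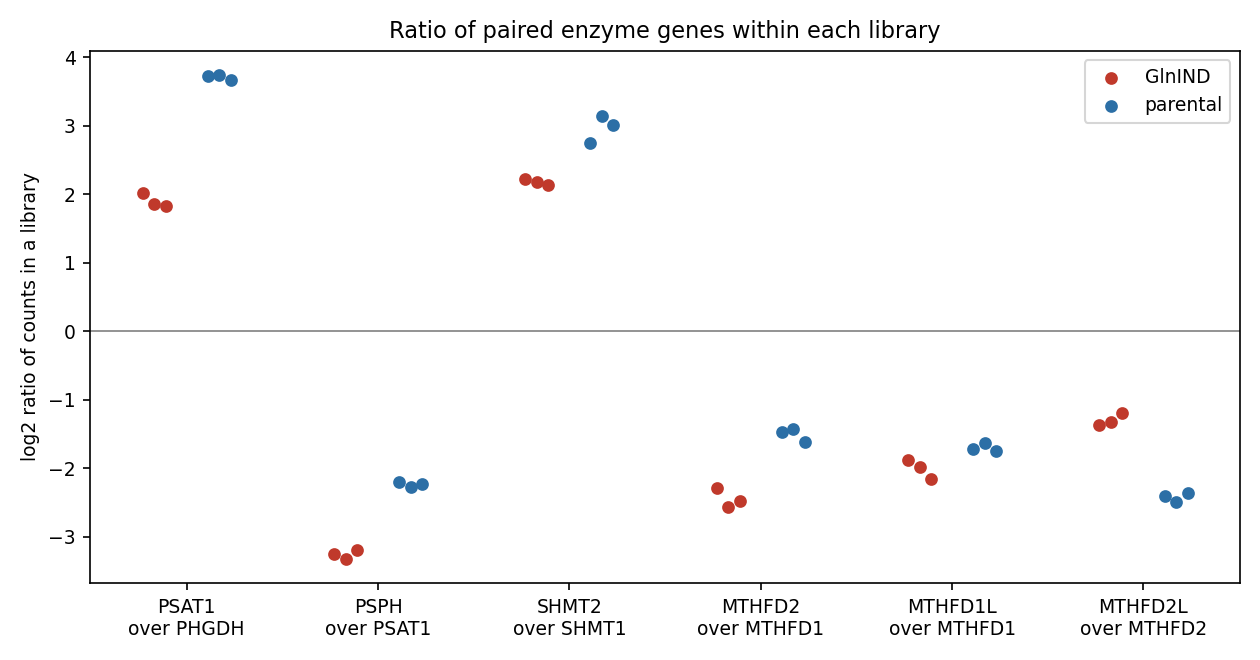
Log2 ratio of the counts of 2 enzyme genes within each library (vertical axis), for 6 pairs, with GlnIND libraries in red left of the parental libraries in blue. No pair overlaps between the groups, beside CPM ranges apart at 65% of single tested genes. The widest gap is at PSAT1 over PHGDH, at a mean of 1.90 in GlnIND and 3.71 in parental cells.

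Both cytosolic folate genes were higher in GlnIND cells. SHMT1, the cytosolic serine hydroxymethyltransferase, was at 42.2, 40.8 and 40.1 CPM in GlnIND libraries, against 29.81, 29.97 and 33.95 CPM in parental libraries. It rose by 0.39 in log2 units (SE 0.0857, edgeR adjusted p = 0.00328). MTHFD1, the cytosolic enzyme with all the folate interconversion activities, was at 349.3, 365 and 365.5 CPM in GlnIND libraries, against 316.3, 306 and 323.9 CPM in parental libraries. The lowest GlnIND library was above the highest parental one, and MTHFD1 rose by 0.19 (SE 0.0583, edgeR adjusted p = 0.0188). The MTHFD1 call was lost without parental replicate 2 (0.15, edgeR adjusted p = 0.118), without GlnIND replicate 2 (0.17, 0.0917) and without GlnIND replicate 3 (0.17, 0.0907).

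Exons of genes on the opposite strand overlap both cytosolic genes in the GENCODE 29 annotation, and the strand setting of the counting was not given in the sources used here. SMCR8 shares 196 bases with SHMT1, 6.95% of its exon length, and had 6151 counts over the GlnIND libraries and 4135 over the parental libraries. ZBTB25 shares 178 bases with MTHFD1, 2.58% of its exon length, and had 1070 GlnIND and 545 parental counts. Their part in the SHMT1 and MTHFD1 values was not tested.

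In the mitochondrial branch 2 genes fell, 1 rose and 1 did not pass the test. SHMT2, the mitochondrial serine hydroxymethyltransferase, was at 196.4, 184.7 and 176.4 CPM in GlnIND libraries, against 199.9, 264.6 and 275.3 CPM in parental libraries. Parental replicate 1 was only just above the highest GlnIND library, while parental replicates 2 and 3 were far above it. SHMT2 fell by 0.41 in log2 units (SE 0.111, edgeR adjusted p = 0.0108). Without parental replicate 1 it fell by 0.55 (edgeR adjusted p = 1.1e-14), in a fit that called 9280 of 14232 tested genes. The SHMT2 call was lost with library totals (-0.26, edgeR adjusted p = 0.088) and was narrow without GlnIND replicate 3 (-0.38, 0.0492).

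MTHFD2, the mitochondrial dehydrogenase and cyclohydrolase that is abundant in embryonic and tumour cells, was at 71.3, 61.3 and 65.8 CPM in GlnIND libraries, against 114.5, 113.5 and 105.3 CPM in parental libraries. The groups were well apart, and the gene fell by 0.75 (SE 0.0771, edgeR adjusted p = 3.49e-05). Its paralog MTHFD2L, which catalyses the same step, went the other way, at 27.5, 24.5 and 28.7 CPM in GlnIND libraries and 21.7, 20.1 and 20.5 CPM in parental libraries. MTHFD2L rose by 0.37 (SE 0.0982, edgeR adjusted p = 0.0091), a call lost without GlnIND replicate 3 (0.31, edgeR adjusted p = 0.0565). MTHFD1L, the mitochondrial formate-releasing enzyme, was at 95.02, 92.8 and 81.9 CPM in GlnIND libraries and at 95.7, 98.7 and 96.2 CPM in parental libraries. Its groups nearly touched, and its log2 fold change of -0.11 (95% interval -0.27 to 0.06, edgeR adjusted p = 0.241) did not pass the test and turned to 0.05 with library totals. MTHFD1L is the member whose promoter window holds the TGATGNAA core shown above.

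The row MTHFD2P1, a pseudogene of MTHFD2, had 0 counts over the GlnIND libraries and 11 over the parental libraries, far below MTHFD2 itself. SLC4A5, on the opposite strand, shares 29.7% of the MTHFD2 exon length and had 63 GlnIND and 35 parental counts. NDUFA4L2 shares 29 bases with SHMT2 and had 2 counts in each group. Opposite-strand genes with no row in the count tables also overlap the members, the longest overlaps being 427 bases of SHMT2 (14.1% of its exon length, with AC137834.2) and 295 bases of MTHFD2 (6.62%, with AC006030.1). The part of these genes in the SHMT2 and MTHFD2 values was not tested.

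In the 3 pairs compared across the compartments, the mitochondrial gene was lower relative to the cytosolic one in GlnIND cells. MTHFD2L was not paired with a cytosolic gene, and its rise of 0.37 exceeded that of MTHFD1, at 0.19. SHMT2 counts were 4.65, 4.52 and 4.4 times the SHMT1 counts in GlnIND libraries, against 6.71, 8.83 and 8.11 times in parental libraries. MTHFD2 counts were 0.204, 0.168 and 0.18 of the MTHFD1 counts in GlnIND libraries and 0.362, 0.371 and 0.325 of them in parental libraries. For MTHFD1L over MTHFD1 the values were 0.272, 0.254 and 0.224 in GlnIND libraries and 0.303, 0.322 and 0.297 in parental libraries. The log2 differences were -0.79, -0.94 and -0.30, and in each pair all 3 GlnIND libraries lay below all 3 parental ones. The CPM ranges of single genes were apart at 65% of tested genes. Within mitochondria the MTHFD2L counts were 0.386, 0.399 and 0.437 of the MTHFD2 counts in GlnIND libraries and 0.189, 0.177 and 0.195 of them in parental libraries, a log2 difference of 1.12.

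Summed over their genes, serine synthesis and cytosolic folate stood higher and mitochondrial folate lower in GlnIND cells. The 3 serine synthesis genes together averaged 317 ± 20.9 CPM in GlnIND and 259 ± 23.5 CPM in parental cells (SD, n = 3 each), a log2 ratio of 0.29. The 2 cytosolic folate genes averaged 401 ± 8.17 CPM in GlnIND and 347 ± 11 CPM in parental cells, a log2 ratio of 0.21. The 4 mitochondrial folate genes averaged 369 ± 19.3 CPM in GlnIND and 475 ± 37.7 CPM in parental cells, a log2 ratio of -0.37. With library totals the cytosolic, serine and mitochondrial log2 ratios were 0.36, 0.44 and -0.21, and as means of the members' log2 fold changes the serine and mitochondrial ones were 0.46 and -0.22. These sums carry no test, and PSAT1, MTHFD1 and SHMT2 hold the largest part of their levels. In the serine sum the difference between the groups was larger at PHGDH than at PSAT1. PHGDH averaged 61.7 CPM in GlnIND and 15.4 CPM in parental cells, and PSAT1 231.4 and 201.4 CPM.

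For each member the 40 tested genes next to it in chromosomal order, as many on one side as on the other, were examined. Of these 40 genes 14 to 27 were called for a member, against 56.3% of all tested genes. The neighbour median of a placed gene had a typical absolute value of 0.206 (the median over all placed genes), and the medians at SHMT1, PSPH and MTHFD1 lie near or below that. The part of the neighbours in the members' values was not tested. Around SHMT2 on chromosome 12, 21 of the 40 neighbours were called lower and 6 higher, with a median log2 fold change of -0.34. SHMT2 stood at -0.07 relative to these neighbours (t test with the edgeR SE, adjusted p = 0.628). The neighbours of SHMT1 on chromosome 17 had a median of 0.20, and SHMT1 stood at 0.19 relative to them (adjusted p = 0.0871). MTHFD1 stood at 0.13 relative to a neighbour median of 0.06 (adjusted p = 0.0835). Of the 40 MTHFD1 neighbours 13 were called higher and 12 lower. The calls of SHMT2, SHMT1 and MTHFD1 ended when the neighbours' median was subtracted.

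The other calls did not. PHGDH, whose neighbours had a median of 0.11, stood at 1.90 relative to them, and MTHFD2 at -0.75 beside a median of 0.00. PSPH on chromosome 7 stood at -0.58 relative to a neighbour median of -0.24 (adjusted p = 0.0011). MTHFD2L stood at 0.65 and PSAT1 at 0.30 relative to neighbours with medians of -0.27 and -0.10, and PSAT1 then passed (adjusted p = 0.017). The p-values relative to neighbours come from a t test with the edgeR SE and are adjusted over all placed genes. They treat the neighbours' median as known and leave out its error.

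**Figure D3:**
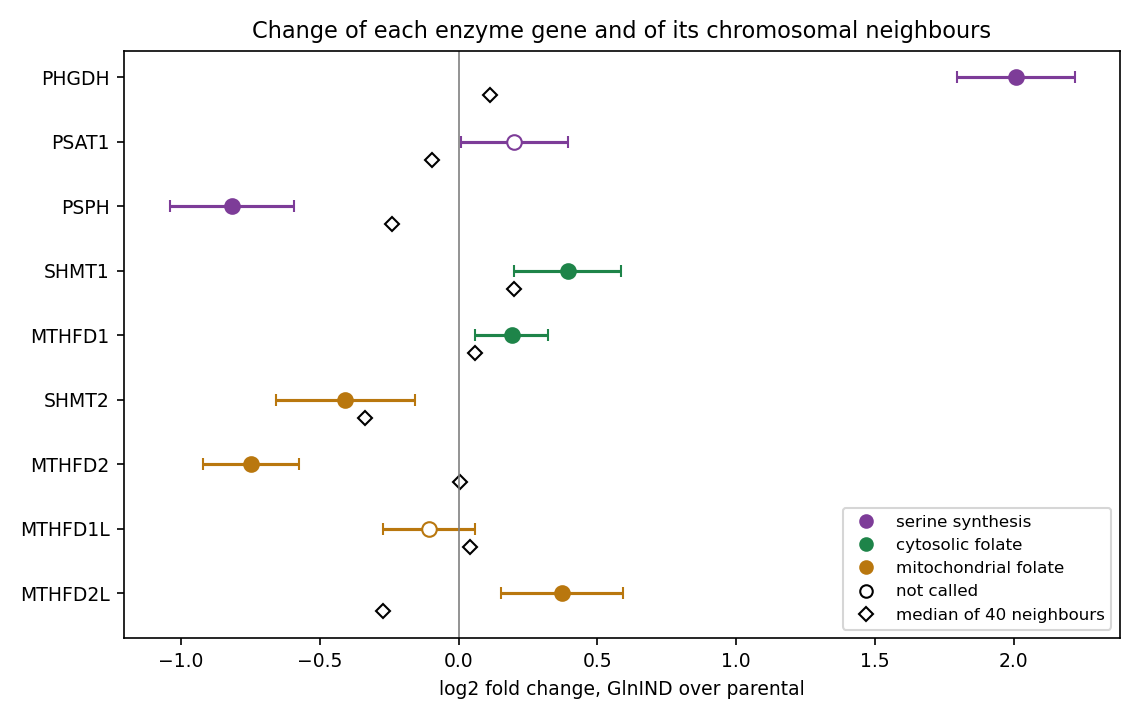
Log2 fold change of GlnIND over parental for each enzyme gene with its 95% interval (circles, filled where called, coloured by branch), and the median of its 40 chromosomal neighbours (diamonds). SHMT2, at -0.41, lies near its neighbours at -0.34, while PHGDH, at 2.01, and MTHFD2, at -0.75, lie far from theirs at 0.11 and 0.00.

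Levels were compared between genes as CPM per kilobase of exon, with union exon lengths of protein-coding transcripts in GENCODE 29, which need not be the annotation the authors counted on. In GlnIND cells PSAT1 was highest at 106 CPM per kilobase, followed by SHMT2 at 61.4, MTHFD1 at 52.1, MTHFD1L at 23.5, PHGDH at 23.2, MTHFD2 at 14.8, SHMT1 at 14.6, PSPH at 11.1 and MTHFD2L at 8.66. The ranges of MTHFD1L and PHGDH overlapped, as did those of MTHFD2 and SHMT1. In parental cells PSAT1 (92.1 CPM per kilobase) and SHMT2 (81.4) overlapped at the top, and PHGDH was last at 5.77, below MTHFD2L at 6.68. With the length of the longest transcript instead, SHMT2 headed PSAT1 in parental cells, still with overlapping ranges, and in GlnIND cells SHMT1 came before MTHFD2 and MTHFD2L before PSPH. PHGDH ranked 9 of 9 in parental cells and 5 of 9 in GlnIND cells with either length.

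**Figure D4:**
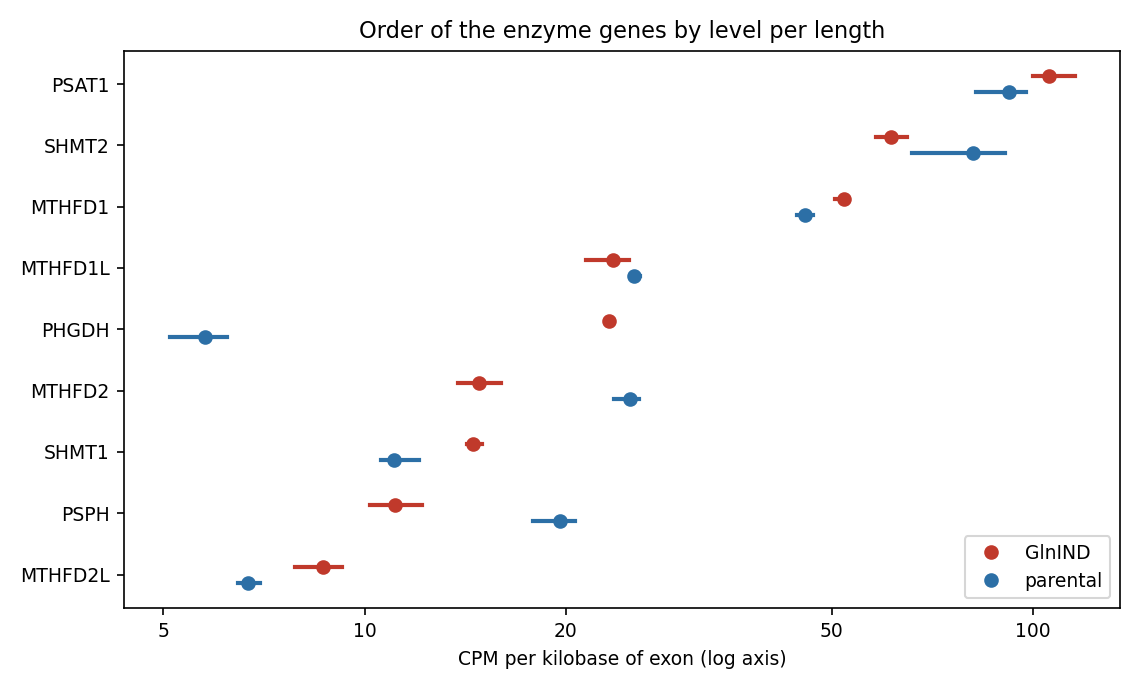
CPM per kilobase of exon (horizontal log axis) for each enzyme gene, with the mean as a point and the range of 3 libraries as a line, GlnIND in red above parental in blue. PHGDH stands at 23.2 in GlnIND and 5.77 in parental cells, and PSAT1 has the highest mean in both.

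Genes around these enzymes were taken as 53 genes in 7 lists, of which 44 were tested. Of these, 10 were higher in GlnIND cells, 21 were lower and 13 were not called, with a median log2 fold change of -0.18, against 28.4% higher and 27.9% lower over all tested genes. The higher genes include FOLR1, which passed the filter on low counts only through its GlnIND libraries. With library totals the split was 13 higher and 15 lower. The carriers that supply mitochondrial folate metabolism numbered 4, of which 3 fell and 1 rose. SFXN1, a mitochondrial serine transporter, was at 159.2, 162.1 and 161.3 CPM in GlnIND libraries, against 241.5, 238 and 233.7 CPM in parental libraries, and fell by 0.56 (SE 0.0563, edgeR adjusted p = 2.94e-05). SLC25A32, the mitochondrial folate carrier, averaged 121.5 CPM in GlnIND and 174.3 CPM in parental cells and fell by 0.52, and SFXN2 fell by 0.51. SFXN3, a further sideroflexin able to carry serine, rose by 0.85.

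Among 11 tested genes of serine use and uptake 4 rose, 5 fell and 2 were not called. Over all tested genes 28.4% were called higher and 27.9% lower, and the list counts here are to be read against these shares. SLC1A4, a transporter of serine and other small neutral amino acids, was at 28.2, 29.8 and 24.5 CPM in GlnIND libraries, against 9.62, 8.58 and 9.46 CPM in parental libraries. It rose by 1.57 in log2 units (SE 0.116, edgeR adjusted p = 4.29e-06), while PTDSS1, which uses serine to make phosphatidylserine, fell by 0.86. The 5 lower genes numbered 2 with upper-quartile factors, with library totals and without GlnIND replicate 2, and 3 without parental replicate 2, GlnIND replicate 1 or GlnIND replicate 3. On the glycolytic side of 3-phosphoglycerate 4 of 6 tested genes fell and 2 were not called. PGK1, which makes 3-phosphoglycerate, averaged 552.4 CPM in GlnIND and 976.8 CPM in parental cells and fell by 0.82, and GAPDH fell by 0.69. With library totals, or without parental replicate 1, 1 gene of this list rose.

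Of 4 tested genes of folate uptake and retention 2 rose and 1 fell, against 28.4% higher and 27.9% lower over all tested genes. The 2 are SLC46A1 and FOLR1, and FOLR1 passed the filter on low counts only through its GlnIND libraries. FPGS, which adds the glutamate tail that retains folate in cells, averaged 16.9 CPM in GlnIND and 29.2 CPM in parental cells and fell by 0.79 (edgeR adjusted p = 0.00263). The proton-coupled folate transporter SLC46A1 rose by 0.46 (edgeR adjusted p = 0.0458), a call lost without parental replicate 1 (0.34, edgeR adjusted p = 0.0744), parental replicate 3 (0.44, 0.0916), GlnIND replicate 1 (0.35, 0.18) or GlnIND replicate 3 (0.45, 0.122). It was also lost with DESeq2 (0.45, DESeq2 adjusted p = 0.0533) and with the replicate block (0.46, edgeR adjusted p = 0.0853). The folate receptor gene FOLR1, named after its values were seen, had 38, 36 and 32 counts in GlnIND libraries and 0, 0 and 2 in parental libraries, a ratio of 41.6 (95% Clopper-Pearson interval 11.2 to 348, counting error only). SLC19A1, the reduced folate carrier, and CBS, a serine-using enzyme, were listed at 0 in all 6 libraries, which may be a loss in counting and is not read as absence of expression.

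TYMS, the thymidylate synthase, averaged 74.5 CPM in GlnIND and 91.8 CPM in parental cells and fell by 0.30 (edgeR adjusted p = 0.00433, and 0.0734 with library totals). Among 11 tested enzymes that carry other folate one-carbon units 3 rose, 5 fell and 3 were not called. The shares over all tested genes were 28.4% higher and 27.9% lower. AMT, the aminomethyltransferase of glycine cleavage, averaged 4.98 CPM in GlnIND and 1.37 CPM in parental cells and rose by 1.85 (edgeR adjusted p = 0.000541). MTHFS, which recycles 5-formyltetrahydrofolate, averaged 1.87 CPM in GlnIND and 0.867 CPM in parental cells and rose by 1.12 (edgeR adjusted p = 0.011), a call lost without GlnIND replicate 3 (0.98, edgeR adjusted p = 0.054). The other parts of glycine cleavage, named after their values were seen, did not rise with AMT. GCSH, its hydrogen carrier protein, averaged 9.46 CPM in GlnIND and 14.5 CPM in parental cells and fell by 0.62 (edgeR adjusted p = 0.000955). DLD, the dihydrolipoamide dehydrogenase it shares with other complexes, averaged 117.7 CPM in GlnIND and 177 CPM in parental cells and fell by 0.59 (edgeR adjusted p = 4.67e-05). GLDC, the decarboxylase, was not tested and had 10 counts over the GlnIND and 12 over the parental libraries.

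Of 5 tested transcription factors and chromatin regulators known to act on these enzymes none was called higher by edgeR. Of these 5, 2 fell and 3 (ATF3, MYC and KDM4C) were not called, while 56.3% of all tested genes were called. ATF4, which activates PHGDH, PSAT1, PSPH, SHMT2 and MTHFD2 when amino acids are short, was at 258.4, 237.2 and 217.3 CPM in GlnIND libraries, against 300.7, 301.7 and 305.4 CPM in parental libraries, and fell by 0.35 (SE 0.072, edgeR adjusted p = 0.00241). NFE2L2, the gene of NRF2, averaged 104 CPM in GlnIND and 168.6 CPM in parental cells and fell by 0.70. These are transcript levels, and both factors are regulated after transcription as well.

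**Figure D5:**
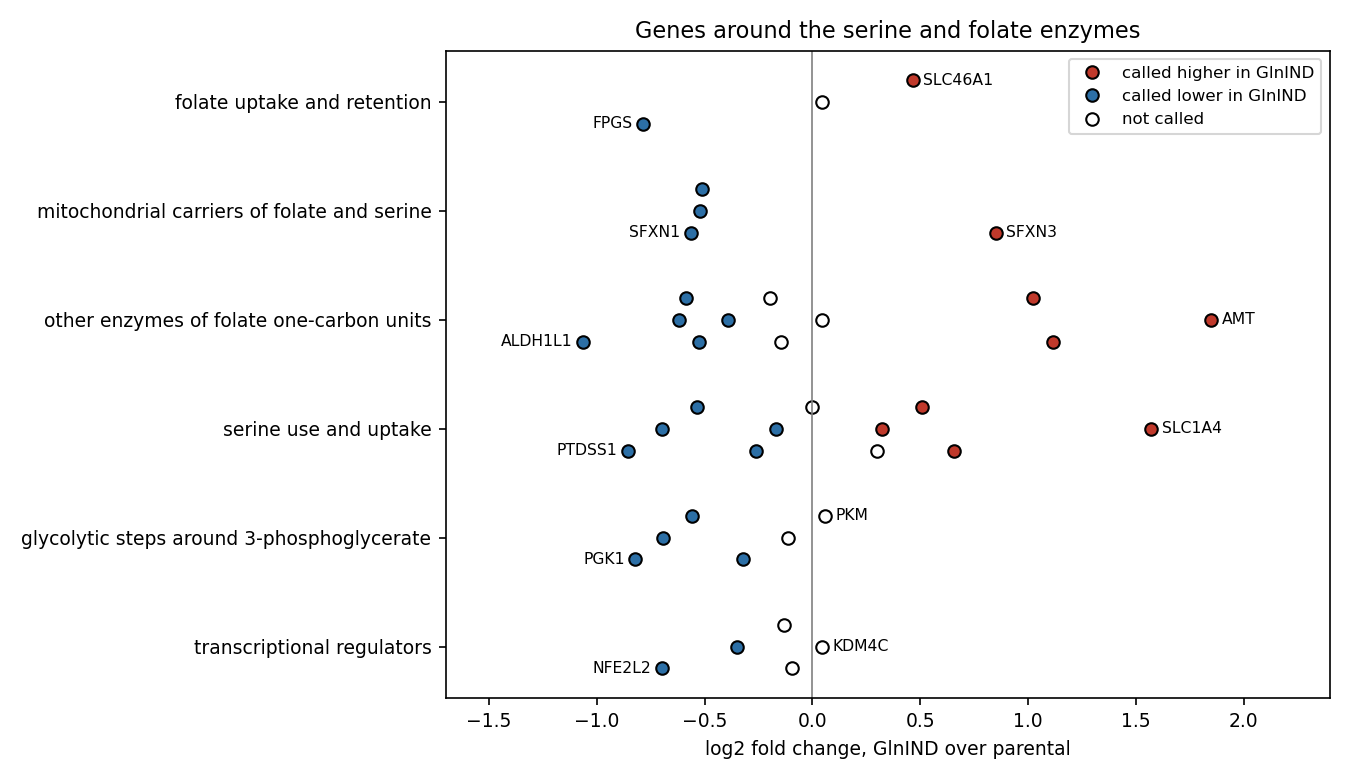
Log2 fold change of GlnIND over parental (horizontal axis) for the tested genes of 6 of the lists around the serine and folate enzymes, red where called higher, blue where called lower and white where not called, with the lowest and highest gene of each list named. FOLR1 is left out because it had 2 counts over the parental libraries. SLC1A4 at 1.57 and AMT at 1.85 stand highest, and 3 of the 4 mitochondrial carriers lie near -0.5.

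The genes whose pattern over the 6 libraries was most like that of a serine synthesis member were sought among 10583 genes with a mean of at least 5 CPM, by the root mean square distance of centred log2 CPM. For PHGDH they were CHRDL1, ALDH5A1 and MAP2K6, at 0.08 to 0.09, with a median of 1.02 over all candidates. For PSAT1 they were NDUFS4, TMEM216 and COMMD1, at 0.02 to 0.04, with a median of 0.26, and for PSPH they were ARMC10, PGRMC1 and PNO1, at 0.03 to 0.05, with a median of 0.43. Among the members themselves the closest pair was PSPH and MTHFD2, at 0.10, and the next was SHMT1 and MTHFD2L, at 0.11. These distances rest on 6 libraries in 2 groups and say nothing of shared function.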

How the data were processed

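Per the labels' protocols, column-purified RNA of plate-frozen cells went into oligo-dT-enriched Kapa libraries. Raw read counts by gene symbol were deposited by the authors as a table for each library, with a matrix of all 6. Per the submitters' processing notes, FastQC, STAR, featureCounts and DESeq were used with hg19. The sources used here do not give versions, annotation, strand setting or treatment of multiply mapped reads. The matrix held the same values with the names of replicates 1 and 3 exchanged within each group, and replicate numbers here follow the tables.

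The counts were tested with edgeR 4.0.16 (R 4.3.3), by its two-sided quasi-likelihood test (glmQLFit, glmQLFTest; TMM factors, filterByExpr with a minimum count of 10 and total of 15, group as the only term), and 13949 of 28265 rows passed the filter. The common biological coefficient of variation was 9.79%. The SE was computed from the F statistic. The procedure was tested on simulated data with few changed genes, balanced in direction, and the same biological variation at every gene. In the real data 56.3% of tested genes were called and parental replicate 1 stood apart. The simulation therefore does not show how the scaling or the error rate holds here. Low counts were mostly even (60.6% to 65% of counts under 20), and if both ends of a read pair were counted, the counting interval of FOLR1 is too narrow. That interval covers counting error only. All members had at least 274 counts.

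The members and lists were chosen with earlier results of these data known. All 9 members are named. From each list the 2 called genes with the largest change and a mean of at least 1 CPM are named, and others only where a sentence needs them. Some genes of the lists are not reported here. For PHGDH, PSAT1 and PSPH the 3 most similar genes are named. Gene order came from RefSeq (GRCh38.p14), which placed 98.8% of tested genes, and exon lengths from GENCODE 29. Alternatives were RLE, upper-quartile and total-count scaling, no filter, a CPM of at least 1 in 3 libraries, the replicate block, DESeq2 1.42.0, limma-voom (limma 3.58.1), an adjusted p under 0.01, the matrix, each library left out, and subtraction of the neighbours' median. The order by the longest transcript and values relative to the median of all genes were added after the data had been seen.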

Additional observations from a re-analysis of the deposited data

How the results depend on the processing

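PHGDH, PSPH and MTHFD2 kept their direction and call under all 17 alternatives run for each, with log2 fold changes of 1.90 to 2.16, -0.90 to -0.58 and -0.82 to -0.60. The matrix and the adjusted p under 0.01 count among these, although they rest on the same counts and fit and could not change a direction. Of the 9 members 5 to 8 were called when 1 library was left out, with 2 to 5 higher and 3 lower in each case. With an adjusted p under 0.01, 5 members were called, beside 5851 of the 13949 tested genes. The fewest higher members, 2, were found without GlnIND replicate 3. Replicate numbers were not known to pair the libraries, and deviations of same-numbered libraries correlated at -0.06, 0.03 and -0.04. With the replicate block 7303 genes were called, against 7853, and 6 members, MTHFD1 being lost (0.19, edgeR adjusted p = 0.0535). The summed log2 ratios of the serine, cytosolic and mitochondrial branches were 0.44, 0.36 and -0.21 with library totals and 0.46, 0.29 and -0.22 as means of the members' log2 fold changes, and the cytosolic one was 0.30 with upper-quartile factors. With 1 library left out they ranged over 0.21 to 0.31, 0.17 to 0.22 and -0.44 to -0.35. MTHFD1L turned to 0.0451 with library totals (edgeR adjusted p = 0.613), and SHMT2 stood at -0.26 (0.088). The cause of these changes was not tested. With GlnIND replicates 2 or 3 left out, 6524 of 14168 and 6516 of 14145 tested genes were called. Without parental replicate 1, 9280 of 14232 were called. The member counts with 1 library left out are to be read against such shares. The 2 parental counts of FOLR1 limit the precision of its ratio.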
